A study of Mus musculus with 12 samples.

Results

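Fatty acid oxidation was examined through 43 genes for the uptake, activation, mitochondrial and peroxisomal oxidation of fatty acids and for ketone body formation. The genes were listed by symbol and found through their Ensembl transcripts, 43 of the 31114 genes joined in the livers of hFIX-R29X mice. Mouse F9 is deleted in these animals, and a minigene of human FIX with the R29X nonsense codon stands behind a transthyretin promoter, which is active mainly in hepatocytes, so that all groups are models of hemophilia B. Groups of 4 livers, with females as replicates 1 and 2 and males as replicates 3 and 4, had received DPBS, Control-GalNAc-ASO at 15 mg/kg or Upf3b-GalNAc-ASO at 10 mg/kg. GalNAc carries an antisense oligonucleotide (ASO) into hepatocytes, the control ASO is a scrambled sequence, and the Upf3b-ASO depletes an mRNA decay factor that takes part in nonsense-mediated decay (NMD). The protocol gave 6 doses 5 days apart, although a label calls the dosing weekly, to mice of 8 to 14 weeks, and livers were taken 48 h after the last dose. The doses of the ASO groups differ, and neither the feeding state nor the hour of collection is given in the sources used here. Upf1-ASO livers were not analysed here.

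Fatty acids enter hepatocytes through transporters such as Cd36, are bound by Fabp1 and are activated to acyl-CoA by synthetases of the Acsl family. Cpt1a, Slc25a20 and Cpt2 carry long-chain acyl groups into mitochondria as carnitine esters, where acyl-CoA dehydrogenases, hydratases, hydroxyacyl-CoA dehydrogenases and thiolases shorten them and pass electrons on through Etfa, Etfb and Etfdh. Peroxisomes shorten very long and branched chains and export medium-chain products as carnitine esters, and thioesterases of the Acot family split acyl-CoA back to free acid and coenzyme A. Many of these genes are targets of the nuclear receptor PPAR-alpha, which is active in the fasted liver.

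Total estimated counts ranged from 13277892 to 20387682 per liver. Values are given as CPM, estimated counts scaled by the TMM library size, and a gene is called where the quasi-likelihood test of edgeR gave an adjusted p-value under 0.05 over the 8846 genes tested. Upf3b itself was at 7.93 to 13.4 CPM in the 8 reference livers and at 0.651 to 1.58 CPM after the Upf3b-ASO. The 7 hepatocyte markers summed to between 43644 and 94235 CPM per liver, while 5 adipocyte markers summed to at most 2.40 CPM, with Lep at 0. The hepatocyte sums were 80164 to 94235 CPM in females, 56186 to 74848 CPM in reference males and 48978 and 43644 CPM in Upf3b-ASO males. The single markers did not all follow the sum. In males against females, 3 of the 7 had a positive and 4 a negative log2 fold change, with a median of -0.07. Of the 7, 1 was called lower in males (14.3%), where 5.73% of all genes were. Control ASO replicate 1 was highest for Kupffer cell (623.9 CPM, others 227.0 to 440.7 CPM) and erythroid markers (1619 CPM, others 116.8 to 352.7 CPM), and the part of these cells in the results was not tested. In bulk livers, fewer cells of a type and less RNA per cell cannot be told apart. A single liver, control ASO replicate 3, stood apart. The 4 cholangiocyte markers summed to 39.0 CPM in it, against 3.31 to 5.88 CPM in the other livers. Its 7 acute phase and stress genes summed to 20327 CPM against 1157 to 1633 CPM in the other livers, and it was the highest or the lowest of the 12 livers for 24 of 42 members tested (57.1%) and for 63.1% of all genes tested. Comparisons include this liver unless stated, and gene counts and calls of members that change without it are also given without it.

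Of the 43 genes, 42 passed the filter (TPM 5 or more in 4 or more livers), and Pdk4 did not. Against control ASO, 3 members (7.14%) rose in Upf3b-ASO livers, where 4.34% of all genes tested rose, and 4 members (9.52%) fell, where 5.95% of all genes fell. The median log2 fold change of the members was 0.03, close to the median of -0.02 over all genes. Against DPBS, 1 member (2.38%) rose and 5 (11.9%) fell, against 3.57% and 5.36% of all genes, with a median of -0.02 for the members and -0.00 for all genes. The comparisons share the Upf3b-ASO livers, so that they are not independent of each other, and 10 members were called in at least 1 of them. Control ASO against DPBS, the background of a scrambled ASO, gave no call among the members (edgeR; 3 at an unadjusted p-value under 0.05), where 0% of all genes were called higher and 0.0113% lower. DESeq2 called 45 of all genes in that comparison, and none was a member.

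**Figure D1:**
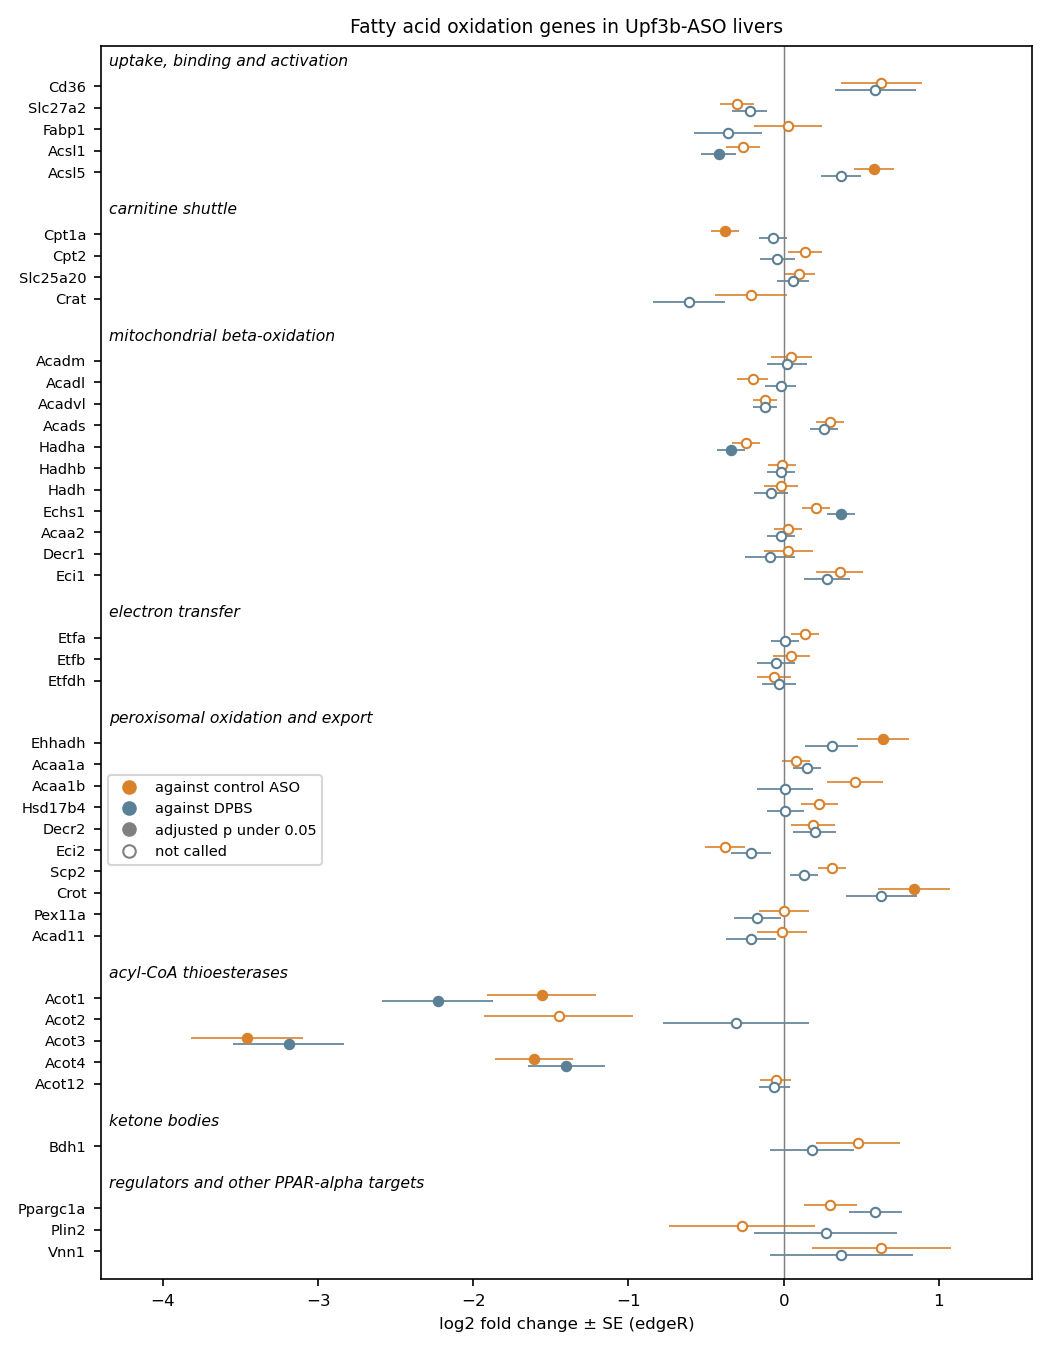
Log2 fold change of each of 42 members in Upf3b-ASO livers on the x axis, against control ASO (orange) and against DPBS (blue), with SE as bars and the members grouped by role on the y axis. Filled points passed an edgeR adjusted p-value of 0.05. Acot3, at -3.46 and -3.19, lies farthest from 0, and the mitochondrial beta-oxidation genes lie between -0.34 and 0.37.

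The acyl-CoA thioesterases held the changes of greatest size. All 5 had a negative log2 fold change against control ASO and against DPBS, as had 4648 and 4426 of all 8846 genes tested. In each comparison 3 of 5 fell (60.0%), where 5.95% and 5.36% of all genes fell. The median of the 5 was -1.56 against control ASO and -1.40 against DPBS. Acot1, Acot2, Acot3 and Acot4 are neighbours on the plus strand of chromosome 12 of GRCm38, in the order Acot2 (83987861 to 83993873), Acot1 (84009490 to 84018371), Acot4 (84038379 to 84048601) and Acot3 (84052144 to 84060402). Acot12, the acetyl-CoA hydrolase of the cytosol, lies on chromosome 13 and was not called, at 140.8 to 196.6 CPM in the 12 livers. Its log2 fold changes were near 0, at -0.05 ± 0.10 (SE) against control ASO and -0.06 ± 0.10 against DPBS.

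Acot3 (ENSMUSG00000021228) encodes a peroxisomal thioesterase for long-chain acyl-CoA. It was at 151, 90.2, 11.4 and 12.1 CPM with DPBS in replicates 1 to 4, at 102, 187, 8.58 and 19.8 CPM in control ASO replicates and at 13.8, 16.8, 1.40 and 0.464 CPM in Upf3b-ASO replicates. Females stood far above males in every group, and within each sex the Upf3b-ASO livers lay below all reference livers, at 13.8 to 16.8 CPM against 90.2 to 187 CPM in females and 0.464 to 1.40 CPM against 8.58 to 19.8 CPM in males. The log2 difference was -3.46 ± 0.36 (SE; edgeR adjusted p = 3.3e-04) against control ASO, an 11.0-fold lower level, and -3.19 ± 0.36 (edgeR adjusted p = 4.4e-04) against DPBS. How many of all genes show such an order within each sex was not counted, here and for the genes below. The lowest value rested on 7 counts. Both calls were lost when sex was left out of the model (edgeR adjusted p = 0.15 and 0.23).

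Acot4 (ENSMUSG00000052392), the peroxisomal thioesterase for succinyl-CoA and other dicarboxylic acyl-CoAs, showed the same ordering. Its values were 63.9, 49.2, 25.5 and 29.2 CPM with DPBS, 54.8, 74.8, 22.4 and 41.0 CPM with control ASO, and 26.6, 26.3, 10.3 and 5.83 CPM in Upf3b-ASO replicates 1 to 4. Upf3b-ASO females overlapped with reference males, but within each sex the Upf3b-ASO livers were below all others. The log2 difference was -1.61 ± 0.25 (SE; edgeR adjusted p = 0.0027) against control ASO and -1.40 ± 0.25 (edgeR adjusted p = 0.0056) against DPBS, and the model without sex lost both calls.

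Acot1 (ENSMUSG00000072949) encodes the cytosolic long-chain thioesterase, a gene that rises with fasting and PPAR-alpha ligands. It was at 46.6, 31.9, 23.9 and 30.2 CPM with DPBS, at 19.5, 15.95, 20.8 and 32.2 CPM with control ASO, and at 3.44, 5.10, 11.9 and 10.3 CPM in Upf3b-ASO replicates 1 to 4. The 4 Upf3b-ASO livers lay below all 8 other livers, the only member for which that held. Over all genes tested this was so for 5.36%. The log2 difference was -1.56 ± 0.35 (SE; edgeR adjusted p = 0.019) against control ASO and -2.23 ± 0.36 (edgeR adjusted p = 0.0037) against DPBS. Without Upf3b-ASO replicate 2 the call against control ASO was lost.

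Acot2 (ENSMUSG00000021226), the mitochondrial paralog, was at 10.3, 8.13, 5.04 and 5.46 CPM with DPBS, at 9.18, 12.8, 32.15 and 7.23 CPM with control ASO, and at 8.39, 6.89, 4.33 and 3.71 CPM in Upf3b-ASO replicates. It was not called against either group, at -1.45 ± 0.48 (SE; edgeR adjusted p = 0.08) and -0.31 ± 0.47 (edgeR adjusted p = 0.75). The highest value belonged to control ASO replicate 3, and without this liver the difference from control ASO was -0.64 ± 0.15 (edgeR adjusted p = 0.012). Acot1 and Acot2 are near-identical in part. Of the 31-base words in the Acot1 transcripts, 29.2% also occur in Acot2, and 38.3% occur in another Acot gene of the cluster, so that Salmon could have moved reads between these genes. The sum of Acot1 and Acot2, which does not depend on a division of reads between the pair, had a mean of 13.5 ± 2.05 CPM after the Upf3b-ASO, 37.4 ± 11.5 CPM after the control ASO and 40.4 ± 11.9 CPM after DPBS (SD, n = 4). The Upf3b-ASO sums, from 11.8 to 16.2 CPM, lay below the other 8, which ran from 28.6 to 56.9 CPM.

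**Figure D2:**
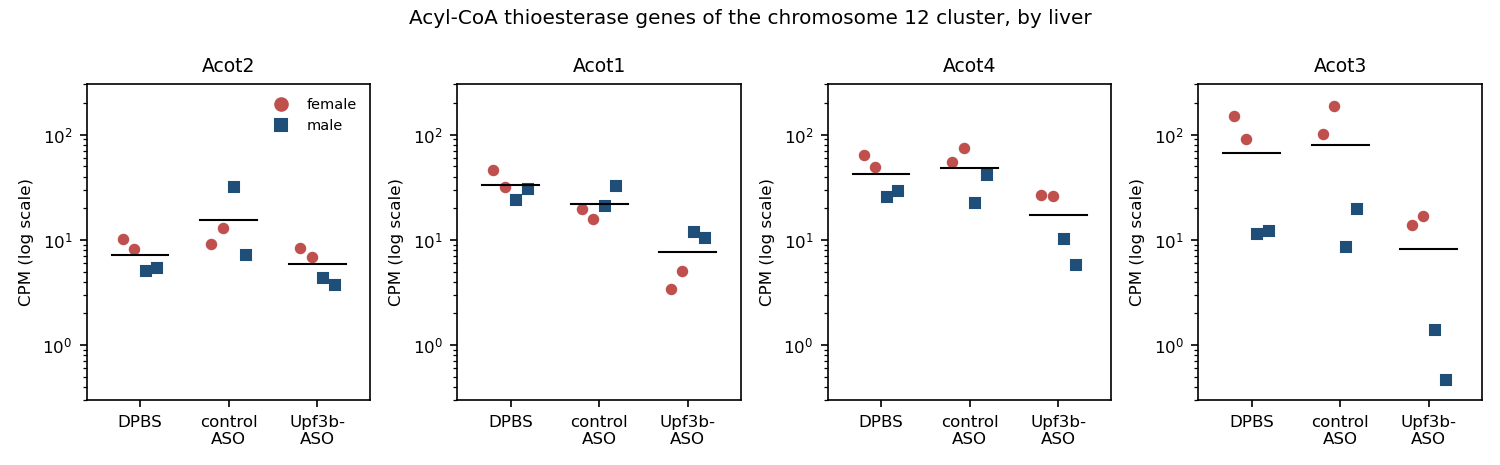
CPM (log scale) of Acot2, Acot1, Acot4 and Acot3 in each of the 12 livers, females as red circles and males as blue squares, with a bar at the mean of each group of 4 livers. Acot3 falls to 0.464 and 1.40 CPM in the Upf3b-ASO males, and in Acot2 control ASO replicate 3 stands alone at 32.15 CPM.

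Numb, Ptgr2, Zfp410, Coq6 and Entpd5, tested genes of other families that flank the cluster, were not called against either group, with log2 fold changes from -0.04 to 0.39 against control ASO. Acot5 and Acot6, thioesterase genes that lie beyond Acot3, were at 0 to 0.4325 CPM and at 0.371 to 2.57 CPM, both below the filter.

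The 250 bases before the annotated start of the cluster genes are shown because 3 of the 4 genes moved together. They were read on the plus strand from the RefSeq promoter table of GRCm38.p6, for Acot2 at chr12:83987611-83987860, Acot1 at chr12:84009252-84009501, Acot4 at chr12:84038129-84038378 and Acot3 at chr12:84051894-84052143. Each window ends at the base before the RefSeq start, and for Acot3, with 2 starts listed, the first was taken. Capitals mark matches, on either strand, to AGGTCA, the half-site of nuclear receptors such as PPAR-alpha, to CACGTG, the E-box of clock factors, or to TTATGTAA, a D-box.
Acot2: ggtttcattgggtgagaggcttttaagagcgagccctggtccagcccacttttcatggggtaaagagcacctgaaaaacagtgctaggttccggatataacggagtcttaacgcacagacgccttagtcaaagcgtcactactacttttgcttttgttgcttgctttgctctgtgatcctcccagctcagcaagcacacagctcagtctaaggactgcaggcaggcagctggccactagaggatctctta
Acot1: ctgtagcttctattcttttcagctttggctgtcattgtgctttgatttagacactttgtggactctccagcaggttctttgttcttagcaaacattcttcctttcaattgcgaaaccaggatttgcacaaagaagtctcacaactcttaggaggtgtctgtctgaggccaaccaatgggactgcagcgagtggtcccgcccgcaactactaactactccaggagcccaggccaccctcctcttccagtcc
Acot4: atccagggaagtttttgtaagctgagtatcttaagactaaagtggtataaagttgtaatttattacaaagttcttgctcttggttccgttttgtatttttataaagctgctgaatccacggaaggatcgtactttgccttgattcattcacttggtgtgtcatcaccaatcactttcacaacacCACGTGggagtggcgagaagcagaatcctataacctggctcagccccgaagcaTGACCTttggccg
Acot3: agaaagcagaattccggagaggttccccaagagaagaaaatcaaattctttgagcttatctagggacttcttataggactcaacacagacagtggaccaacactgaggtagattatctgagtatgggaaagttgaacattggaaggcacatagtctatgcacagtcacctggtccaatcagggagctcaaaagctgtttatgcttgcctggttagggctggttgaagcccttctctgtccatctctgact
Only the Acot4 stretch held matches, an E-box from 66 to 61 bases and a half-site on the minus strand from 13 to 8 bases before the start. Among 32851 promoters of the same length in the table, 14% held AGGTCA, 6.02% held CACGTG and 0.819% held TTATGTAA. No match says only that these letters are not in the window of the other genes.

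Among the genes for uptake, binding and activation, 1 of 5 rose against control ASO and 1 of 5 fell against DPBS. By TPM, which is per length, Fabp1, the cytosolic fatty acid binding protein, was the most abundant of the group, at 11829 ± 2308 TPM in DPBS livers (SD, n = 4), followed by Slc27a2, a very long-chain acyl-CoA synthetase and transporter, at 889 ± 72.2 TPM. Neither was called, with CPM from 1656 to 3872 for Fabp1 and from 1037 to 1590 for Slc27a2. Acsl5 (ENSMUSG00000024981) activates long-chain fatty acids. It was at 539, 563, 379 and 494.5 CPM with DPBS, at 601, 524, 279 and 359 CPM with control ASO, and at 768, 735, 545 and 525 CPM in Upf3b-ASO replicates 1 to 4. Within each sex the Upf3b-ASO livers were the highest, and males of that group overlapped with reference females. The estimated log2 change was 0.58 ± 0.13 (SE; edgeR adjusted p = 0.021) against control ASO and 0.37 ± 0.13 (edgeR adjusted p = 0.12) against DPBS, and the call was lost in 3 of 12 fits without a single liver. Without control ASO replicate 3, Acsl5 was also called against DPBS (0.38 ± 0.09, edgeR adjusted p = 0.012).

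Acsl1 (ENSMUSG00000018796), the most abundant Acsl gene of the liver and a PPAR-alpha target, went the other way. It was at 1139, 1200, 1632 and 1272 CPM with DPBS, at 877.5, 1107, 1377 and 1367 CPM with control ASO, and at 895, 828, 1170 and 1032 CPM in Upf3b-ASO replicates. Upf3b-ASO livers were lower than the DPBS livers of the same sex, and overlapped with control ASO. The difference was -0.42 ± 0.11 (SE; edgeR adjusted p = 0.038) against DPBS and -0.26 ± 0.11 (edgeR adjusted p = 0.15) against control ASO, and 9 of 12 fits without a single liver lost the call. Cd36, the plasma membrane transporter, ran from 42.0 to 205 CPM and was not called.

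In the carnitine shuttle, 1 of 4 genes fell against control ASO and none was called against DPBS. Cpt1a (ENSMUSG00000024900), which controls the entry of long-chain acyl groups into mitochondria, was at 342, 394, 427.5 and 379 CPM with DPBS, at 401, 472, 548 and 481 CPM with control ASO, and at 369.6, 341, 369 and 383 CPM in Upf3b-ASO replicates 1 to 4. All Upf3b-ASO livers were below all control ASO livers, as for 7.69% of all genes tested, but they overlapped with the DPBS livers. The estimated log2 change was -0.38 ± 0.09 (SE; edgeR adjusted p = 0.031) against control ASO and -0.07 ± 0.09 (edgeR adjusted p = 0.7) against DPBS, while control ASO was 0.30 ± 0.09 above DPBS (edgeR adjusted p = 0.64). The call was lost in 4 of 12 fits without a single liver. Cpt2, the inner membrane transferase, stayed between 63.8 and 92.7 CPM and Slc25a20, the carnitine-acylcarnitine carrier, between 95.4 and 136 CPM, and neither was called. Crat, the acetyltransferase, was not called either, at -0.61 ± 0.23 (edgeR adjusted p = 0.12) against DPBS. It was called there without control ASO replicate 3 (-0.61 ± 0.21, edgeR adjusted p = 0.0489). That liver is in neither group and enters this comparison through the shared spread, sex term and scaling.

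Of the 11 enzymes of mitochondrial beta-oxidation, none was called against control ASO, with log2 fold changes from -0.24 to 0.36 and a median of 0.03. The most abundant by TPM were Acaa2, the last thiolase of the spiral, at 794 ± 75.0 TPM, and Acadm, the medium-chain dehydrogenase, at 625 ± 105 TPM in DPBS livers. They had log2 fold changes of 0.03 ± 0.09 and 0.05 ± 0.13 against control ASO. Acadvl, Acadl, Acads, Hadhb, Hadh, Decr1 and Eci1 were not called in either comparison. Against DPBS, 1 of 11 rose and 1 fell (9.09% each), where 3.57% and 5.36% of all genes did.

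Echs1 (ENSMUSG00000025465), the short-chain enoyl-CoA hydratase, was at 184, 189, 142 and 151 CPM with DPBS, at 179, 199.5, 167.5 and 196 CPM with control ASO, and at 211, 218, 214 and 214 CPM in Upf3b-ASO replicates. The Upf3b-ASO livers stood above all 8 other livers, which was also the case for Crot and for 4.54% of all genes tested, with an SD of 2.71 CPM against 23.5 CPM in DPBS. The rise was 0.37 ± 0.09 (SE; edgeR adjusted p = 0.033) against DPBS and 0.21 ± 0.09 (edgeR adjusted p = 0.18) against control ASO, and 7 of 12 fits without a single liver lost the call.

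Hadha (ENSMUSG00000025745), the alpha subunit of the trifunctional protein, was at 399.6, 393, 358 and 377.5 CPM with DPBS, at 354, 360.0, 324 and 389 CPM with control ASO, and at 298, 290.5, 326.5 and 294 CPM in Upf3b-ASO replicates. It was below all DPBS livers in the Upf3b-ASO group, as were 1065 of all 8846 genes tested and 5 of 42 members, Hadha included. The difference was -0.34 ± 0.09 (SE; edgeR adjusted p = 0.033) against DPBS and -0.24 ± 0.09 (edgeR adjusted p = 0.098) against control ASO, with the call lost in 8 of 12 fits without a single liver. Hadhb, which encodes the beta subunit and is transcribed from the same locus in the opposite direction, was at -0.02 ± 0.09 against DPBS and was not called. Electron transfer showed no call, with Etfa, Etfb and Etfdh between -0.06 and 0.14 against control ASO.

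The peroxisomal group had 2 risers of 10 against control ASO and none against DPBS. Scp2, the sterol carrier and thiolase, at 2389 ± 630 TPM, and Acaa1b, a peroxisomal thiolase, at 969 ± 102 TPM, were its most abundant members in DPBS livers and were not called (edgeR adjusted p = 0.0542 for Scp2 and 0.13 for Acaa1b, against control ASO). Acaa1b shares 40% of its 31-base words with its paralog Acaa1a, and their sum was 1347 ± 434 CPM after the Upf3b-ASO, 993 ± 206 CPM after the control ASO and 1284 ± 161.5 CPM after DPBS (SD, n = 4). The SD within either group exceeded the difference between DPBS and Upf3b-ASO.

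Crot (ENSMUSG00000003623), the carnitine octanoyltransferase that prepares medium-chain products for export from peroxisomes, was at 727, 828, 457 and 467 CPM with DPBS, at 583, 702, 288 and 559 CPM with control ASO, and at 939, 833, 850.3 and 1066 CPM in Upf3b-ASO replicates 1 to 4. Upf3b-ASO livers lay above all other livers, although the margin over DPBS replicate 2 was small. The rise was 0.84 ± 0.23 (SE; edgeR adjusted p = 0.042) against control ASO, 1.79-fold, and 0.63 ± 0.23 (edgeR adjusted p = 0.12) against DPBS. Control ASO replicate 3 was the lowest liver, and without it the values were 0.65 ± 0.18 (edgeR adjusted p = 0.023) and 0.62 ± 0.16 (edgeR adjusted p = 0.016). Leaving out any of 9 other livers ended the call against control ASO.

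Ehhadh (ENSMUSG00000022853), the bifunctional hydratase and dehydrogenase of peroxisomes, was at 478, 445.5, 259 and 270.1 CPM with DPBS, at 283, 409.8, 173 and 276 CPM with control ASO, and at 478.5, 472, 397 and 389.9 CPM in Upf3b-ASO replicates. The Upf3b-ASO females overlapped with the DPBS females, and the males were above all reference males. The rise was 0.64 ± 0.17 (SE; edgeR adjusted p = 0.038) against control ASO and 0.31 ± 0.17 (edgeR adjusted p = 0.31) against DPBS, and 9 of 12 fits without a single liver lost the call. Hsd17b4, Decr2, Eci2, Acaa1a, Pex11a and Acad11 were not called in either comparison.

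**Figure D3:**
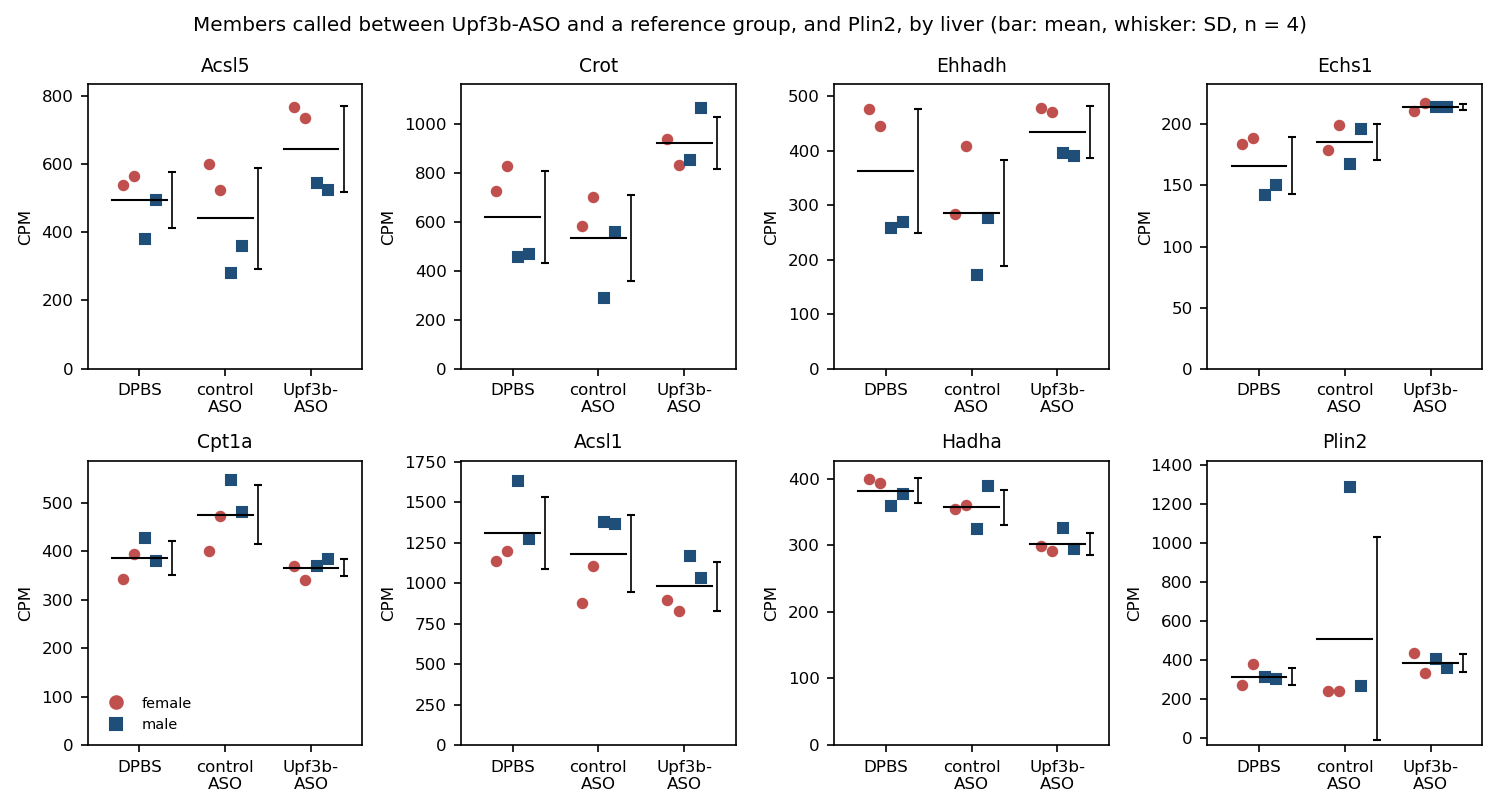
CPM of the 7 members outside the thioesterase group that were called in Upf3b-ASO livers against at least 1 reference group, and of Plin2, in each of the 12 livers, females as red circles and males as blue squares. Bars give the mean and whiskers the SD of 4 livers. Crot and Echs1 stand above all other livers in the Upf3b-ASO group, Cpt1a is at 401 to 548 CPM in control ASO and at 341 to 383 CPM in Upf3b-ASO livers, and Plin2 reaches 1288 CPM in control ASO replicate 3.

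For ketone bodies, Bdh1, the 3-hydroxybutyrate dehydrogenase, was at 222 to 230.2 CPM in Upf3b-ASO, at 149 to 255 CPM after DPBS and at 68.7 to 213 CPM in control ASO livers, with the lowest value in control ASO replicate 3. It was not called, at 0.48 ± 0.27 (SE; edgeR adjusted p = 0.26) against control ASO. Ppargc1a, a coactivator of PPAR-alpha, was not called, at 0.30 ± 0.17 (edgeR adjusted p = 0.28) against control ASO and 0.59 ± 0.17 (edgeR adjusted p = 0.06) against DPBS. Without control ASO replicate 3 it was called against DPBS (0.59 ± 0.15, edgeR adjusted p = 0.013). Vnn1, a pantetheinase, ranged from 9.23 to 54.3 CPM without a call. Plin2, which coats lipid droplets, was at 271, 379.6, 312 and 305 CPM with DPBS, at 242, 243, 1288 and 269.9 CPM with control ASO, and at 435, 335, 408 and 362 CPM in Upf3b-ASO replicates. Its log2 fold change against control ASO turned from -0.27 ± 0.47 (edgeR adjusted p = 0.75) to 0.62 ± 0.12 (edgeR adjusted p = 0.0047) without control ASO replicate 3. Pdk4, the pyruvate dehydrogenase kinase that spares glucose in fasting, was at 453 CPM in that liver and at 2.84 to 8.82 CPM in the other 11, and was not tested.

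Both branches were also summed. The 18 genes of the mitochondrial branch, from the carnitine shuttle through beta-oxidation to electron transfer, summed to 4096 ± 309 CPM after the Upf3b-ASO, 4183 ± 264 CPM after the control ASO and 4193 ± 199 CPM after DPBS (SD, n = 4). The mean log2 ratio of -0.03 against control ASO did not exceed the SD of the groups. The 10 genes of the peroxisomal branch summed to 7812 ± 2451, 6217 ± 1790 and 7075 ± 1498 CPM in the same order, with a ratio of 0.32 against control ASO and 0.11 against DPBS. Females ranged from 4541 to 5857 CPM and males from 6610 to 10139 CPM, a log2 difference of 0.66 that was 0.05 without Scp2. On summed TPM it was 0.26, and control ASO replicate 3, at 3535 TPM, lay below the females of its group, at 3881 and 4226 TPM. Without Scp2, its most abundant member, the branch summed to 4157 ± 557 CPM after the Upf3b-ASO, 3212 ± 592 CPM after the control ASO and 3781 ± 169 CPM after DPBS. The highest values, 4732.5 and 4525 CPM, then belonged to the Upf3b-ASO males and the lowest, 2527 CPM, to control ASO replicate 3. No test was run on these sums.

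**Figure D4:**
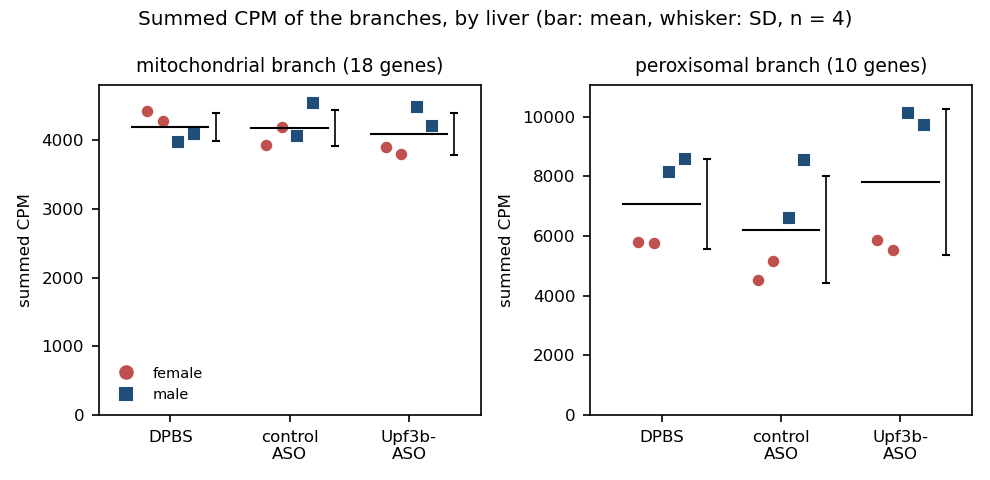
Summed CPM of the mitochondrial branch (18 genes) and of the peroxisomal branch (10 genes) in each of the 12 livers, females as red circles and males as blue squares, with mean and SD of 4 livers. The mitochondrial sums lie between 3801 and 4546 CPM in all groups, while in the peroxisomal branch males of each group lie above its females.

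Without control ASO replicate 3, 6 members rose (14.3%) and 6 fell (14.3%) against control ASO, but 11.0% of all genes then rose and 13.5% fell. Acads, the short-chain dehydrogenase, Scp2 and Plin2 were added to the genes that rose, and Hadha and Acot2 to those that fell. Against DPBS, 5 members (11.9%) rose and 6 (14.3%) fell, where 13.7% and 15.0% of all genes did. Acsl5, Crot, Acads and Ppargc1a were added to the genes that rose against DPBS, and Crat to those that fell. The shares of the members stayed near those of all genes.

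Males and females, the other factor in the labels, differed in 11 members. In males 4 members (9.52%) were higher and 7 (16.7%) lower, where 4.30% and 5.73% of all genes were. Without control ASO replicate 3 the counts were 8 higher and 8 lower (19.0% each), against 10.4% and 11.5% of all genes, with Cpt2, Acads, Acaa1b and Hsd17b4 added to those higher and Acot2 to those lower in males. On log2(TPM + 1) instead of counts, 1 member was higher and 15 were lower. That scale moved the median of all genes from 0.01 to -0.29, so that the split on it is relative to this shift.

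Scp2 (ENSMUSG00000028603) held the largest sex difference in favour of males. It was at 1509 CPM at the lowest, 1880 CPM at the median and 2077 CPM at the highest in 6 females and at 4083, 4819 and 5407 CPM in 6 males, with no overlap. The log2 difference was 1.41 ± 0.07 (SE; edgeR adjusted p = 1.1e-06), and 0.67 on log2(TPM + 1). Among its transcripts, Scp2-201 was at 1053 to 1621 CPM in females and at 3407 to 4965 CPM in males, and Scp2-209 at 0.112 to 0.956 CPM in females and at 24.2 to 138 CPM in males. The processed transcript Scp2-208 had the opposite order, at 28.5 to 131 CPM in females and 3.98 to 9.42 CPM in males. The division of reads between transcripts of 1 gene is an estimate of Salmon, and sex was not tested at this level.

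Pex11a, a peroxisome division factor (0.66 ± 0.12, edgeR adjusted p = 0.0064), Acsl1 (0.38 ± 0.09, 0.023) and Acaa1a (0.32 ± 0.08, 0.027) were also higher in males. On log2(TPM + 1) these genes were no longer called, at 0.22, 0.06 and 0.01. Acot3 was lower in males by more than any other member, at -3.50 ± 0.29 (SE; edgeR adjusted p = 2.0e-05), with 13.8 to 187 CPM in females and 0.464 to 19.8 CPM in males. Acot4 followed at -1.25 ± 0.20 (edgeR adjusted p = 0.0026) and Cd36 at -1.09 ± 0.21 (edgeR adjusted p = 0.0091). Cd36 was at 97.7, 111 and 205 CPM (lowest, median and highest) in females and at 42.0, 54.8 and 116 CPM in males. Ppargc1a (-0.81 ± 0.14), Ehhadh (-0.57 ± 0.14), Acsl5 (-0.55 ± 0.11) and Hadh, the short-chain 3-hydroxyacyl-CoA dehydrogenase (-0.32 ± 0.09, edgeR adjusted p = 0.0498), were lower as well. Of these calls, Hadh was lost in 9, Acaa1a in 6, Acsl1 in 5 and Ehhadh in 5 of 12 fits without a single liver. Acot1, by contrast, was not called between the sexes, at 0.42 ± 0.28.

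**Figure D5:**
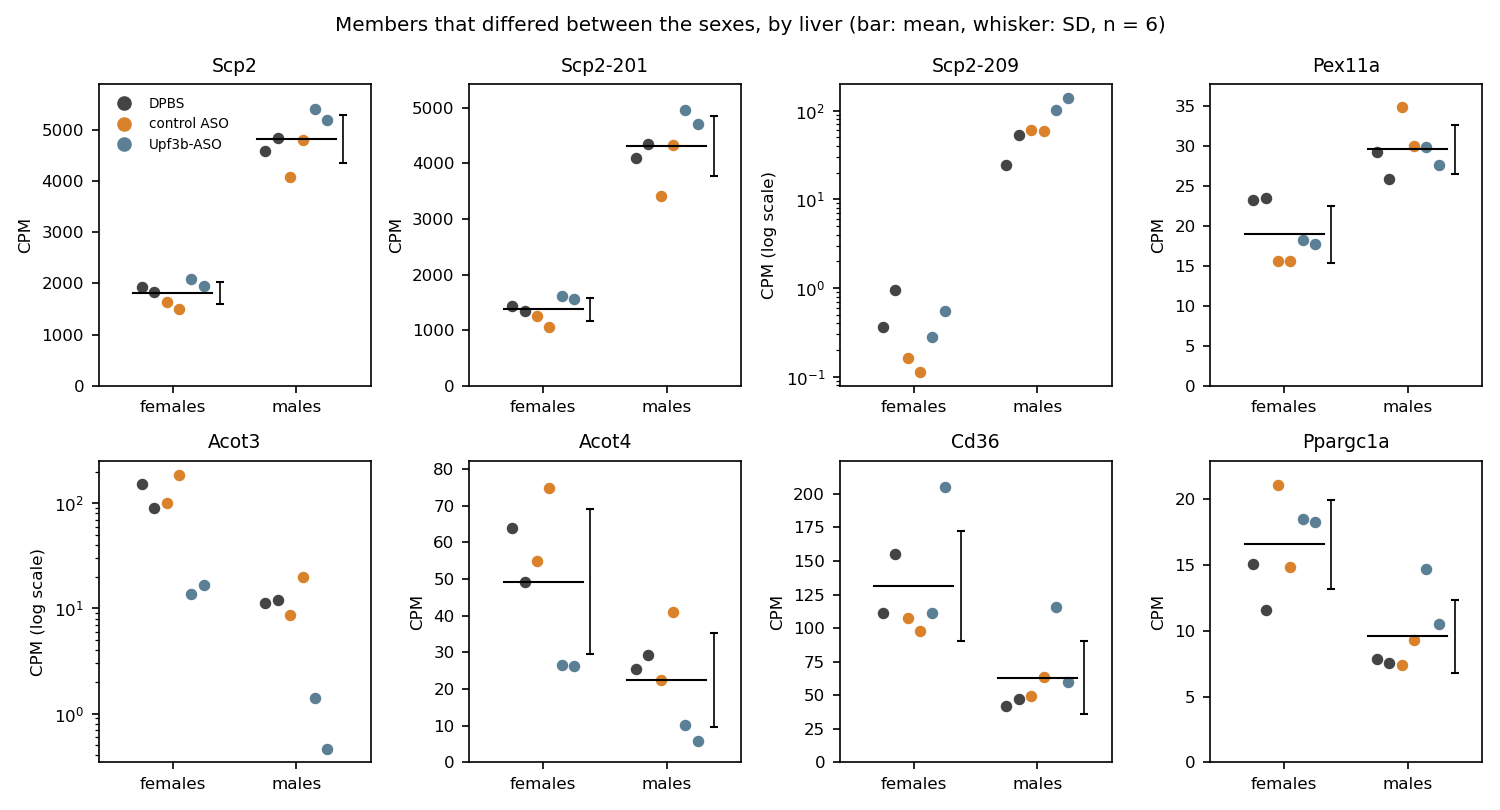
CPM of Scp2, its transcripts Scp2-201 and Scp2-209 (log scale), Pex11a, Acot3 (log scale), Acot4, Cd36 and Ppargc1a in 6 females and 6 males, with colour for the treatment group. Bars and whiskers give mean and SD of 6 livers on the linear panels. Scp2-209 lies under 1 CPM in all females and from 24.2 CPM in males, and the Upf3b-ASO livers are the lowest of their sex for Acot3 and Acot4.

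Whether the response to the Upf3b-ASO itself differed between the sexes was tested by an interaction term. No member was called (edgeR; lowest adjusted p = 0.59; 0 at an unadjusted p-value under 0.05), and 0% of all genes tested were. With 2 livers for each sex and group this does not show that the sexes responded alike. Acot3 was at -3.23 ± 0.49 in females and -3.93 ± 0.62 in males against control ASO, Acot4 at -1.29 ± 0.33 and -1.98 ± 0.35, and Acot1 at -2.04 ± 0.30 and -1.26 ± 0.29. The difference between males and females was 0.78 ± 0.41 for Acot1 (edgeR adjusted p = 0.59), with both sexes lower. Crot was at 0.46 ± 0.28 in females and 1.18 ± 0.28 in males, a difference of 0.71 ± 0.39 (edgeR adjusted p = 0.59). The male value for Crot includes control ASO replicate 3, its lowest liver at 288 CPM, beside 559 CPM in the other control ASO male.

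Since Upf3b acts in NMD, single transcripts of the members were compared as well. Of 170 transcripts of the 43 genes, 3 fell (edgeR, 32673 transcripts tested) and none rose against control ASO, where 0.673% of all transcripts fell and 0.327% rose. At an unadjusted p-value under 0.05 there were 24 of the 170 against control ASO and 25 against DPBS (edgeR). The share of all transcripts at that threshold was not counted, so these counts do not show an excess. The 3 were Acot3-202 (-3.64 ± 0.43, edgeR adjusted p = 0.0045), Acot3-201 (-2.70 ± 0.49, 0.033) and Acot4-201 (-1.61 ± 0.25, 0.017), all protein coding. Against DPBS, 4 fell and none rose, against 0.673% and 0.297% of all transcripts, with Acot1-201 (-2.23 ± 0.38, edgeR adjusted p = 0.025) as the fourth. None of the 44 retained intron transcripts and 35 processed transcripts was called. The 3 transcripts annotated as NMD targets, Crat-213, Acaa1a-208 and Hadhb-209, lay between 0 and 1.44 CPM in every liver and were not called.

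Companion genes of the pathway were listed with earlier results known, and are given by counts. Beside them, 4.34% of all genes tested rose and 5.95% fell against control ASO, and 3.57% and 5.36% against DPBS. Without control ASO replicate 3 these shares of all genes were 11.0% and 13.5%, and 13.7% and 15.0%. Of 28 further enzymes of beta-oxidation and ketone body metabolism, 2 rose (7.14%) and none fell against each reference group. Without control ASO replicate 3 these counts were 3 and 2 against control ASO (10.7% and 7.14%) and 3 and 3 against DPBS (10.7% each). Acox2, the peroxisomal oxidase of branched chains and bile acid intermediates, was at 159, 160, 151.5 and 175 CPM with DPBS, at 134, 128, 169 and 158 CPM with control ASO, and at 243, 249.5, 289.9 and 282 CPM in Upf3b-ASO replicates, with a rise of 0.86 ± 0.08 (SE; edgeR adjusted p = 2.0e-04) against control ASO and 0.72 ± 0.08 (5.6e-04) against DPBS. All Upf3b-ASO livers lay above all others, as for 4.54% of all genes tested. Acad10, an acyl-CoA dehydrogenase, rose by 0.45 ± 0.13 (edgeR adjusted p = 0.04998) and 0.59 ± 0.13 (0.017).

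For omega-oxidation, 1 of 9 tested genes fell against control ASO (11.1%), and 1 fell and 1 rose against DPBS (11.1% each). When control ASO replicate 3 was left out, 3 fell and 1 rose against control ASO (33.3% and 11.1%). Against DPBS, 1 then fell and 2 rose (11.1% and 22.2%). Cyp4f13 fell against both, from 50.7 to 61.7 CPM in the reference livers to 32.5 to 38.5 CPM (-0.67 ± 0.08, edgeR adjusted p = 9.0e-04, and -0.75 ± 0.08, 4.3e-04). Cyp4a10 and Cyp4a14, the classical PPAR-alpha targets, were not called. The log2 fold changes of the list ran from -0.67 to 1.25 against control ASO and from -0.75 to 1.57 against DPBS, with 5 positive and 4 negative in each. Cyp4a31 was at 6.88 to 9.88 CPM in Upf3b-ASO livers and at 2.07 to 5.19 CPM in the others. Cyp4a32 had means of 39.6 ± 12.4 CPM after the Upf3b-ASO, 21.8 ± 17.2 CPM after the control ASO and 13.6 ± 4.96 CPM after DPBS (SD, n = 4). Among 20 tested peroxins and peroxisomal transporters, Pex11g, a peroxisome division factor, was the 1 gene called in each comparison, with 47.8 to 53.7 CPM in Upf3b-ASO and 21.9 to 36.8 CPM in the other livers (0.76 ± 0.15, edgeR adjusted p = 0.0086, and 0.62 ± 0.15, 0.025). When that liver was left out, 2 rose and 3 fell against control ASO and 4 rose and 4 fell against DPBS.

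Of 13 tested genes for PPAR-alpha, its partners and further targets, 4 fell against control ASO (30.8%) and 3 against DPBS (23.1%), and none rose. Of all genes, 5.95% and 5.36% fell. Leaving out control ASO replicate 3 gave 5 lower and 1 higher against control ASO (38.5% and 7.69%). Against DPBS it gave 5 lower and 2 higher (38.5% and 15.4%), where 15.0% and 13.7% of all genes were. Rxra, the receptor partner of PPAR-alpha (-0.39 ± 0.10, edgeR adjusted p = 0.027, and -0.36 ± 0.10, 0.042), and Mgll, the monoacylglycerol lipase (-0.77 ± 0.11, 0.0015, and -0.72 ± 0.11, 0.0023), fell against both. Rxra was at 374 to 387 CPM in Upf3b-ASO and at 456 to 603 CPM in the other livers. Ppara itself fell against DPBS (-0.53 ± 0.13, edgeR adjusted p = 0.028) but was not called against control ASO (-0.29 ± 0.13, 0.17), where it was called without that liver (-0.37 ± 0.11, 0.035).

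Clock genes were included because several genes of fatty acid oxidation cycle over the day. Of 11 tested, 1 rose (9.09%) and 5 fell (45.5%) in each comparison, with a median log2 fold change of -0.93 against control ASO and -0.74 against DPBS. Of all genes, 5.95% and 5.36% fell. Leaving out control ASO replicate 3 gave 1 higher (9.09%) and 9 lower (81.8%) in each comparison, with medians of -0.82 and -0.73. Of all genes, 13.5% and 15.0% then fell. Clock rose (0.66 ± 0.12, edgeR adjusted p = 0.0074, and 0.65 ± 0.12, 0.0085). Ciart, a repressor of the clock, fell most against control ASO, from 6.52 to 38.4 CPM in the reference livers to 2.80 to 3.71 CPM (-2.78 ± 0.40, edgeR adjusted p = 0.0018, and -1.83 ± 0.39, 0.016). Dbp, a clock output factor that binds the D-box (-1.44 ± 0.37 and -1.38 ± 0.37), Per2 (-1.09 ± 0.20 and -0.88 ± 0.20) and Nr1d2 (-0.73 ± 0.11 and -0.68 ± 0.11) fell as well. Dbp in control ASO replicate 3, at 27.4 CPM, lay among the Upf3b-ASO livers (20.9 to 36.4 CPM). These levels moved with the thioesterase genes between the groups, and their part in that difference was not tested.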

How the data were processed

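Liver RNA of 12 hFIX-R29X mice (4 per group) had been sequenced from TruSeq total RNA libraries. The authors deposited, per transcript, estimated counts and TPM from Salmon 0.7.2 (reads from bcl2fastq 2.17.1.14, per the submitters' processing notes), quantified against the mouse Ensembl cDNA of GRCm38. Salmon divides reads shared by similar transcripts by estimation. Of 92468 transcripts, 98.1% were joined to genes. Gene sums of the deposited estimated counts were rounded. Genes (8846) at TPM 5 or more and transcripts (32673) at TPM 1 or more, each in 4 or more livers, were tested by the quasi-likelihood test of edgeR 4.0.16 in R 4.3.3, with TMM scaling, all 12 livers and sex as a covariate. A Benjamini-Hochberg adjusted p-value under 0.05 over all features tested was called. This test gives no SE, so the SE printed is the absolute log2 fold change divided by the square root of its F statistic. Alternatives used DESeq2 1.42.0, limma 3.58.1 on log2-transformed TPM (pseudocount 1 or 0.1), other filters, other samples and single livers left out. The fit was tested on simulated counts. Labels do not say more of the replicates than that each is 1 animal, and p-values measure the spread between these livers. No pair of replicates agreed within sampling noise (chi-square per gene from 23.84 to 596.4). Members called against control ASO or DPBS are given liver by liver, and others by ranges, with the 2 most abundant of each role group, near-identical paralogs, companions called against both reference groups and transcripts called. Plin2 and other uncalled genes were named after their values were seen. The members and lists were chosen with earlier results of these data known. Promoters came from RefSeq (GRCm38.p6). Some companion and flanking genes are not reported here.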

Additional observations from a re-analysis of the deposited data

Results flagged for a closer look

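A single liver lay far from the other 3 of its group in 4 of 129 groups of values checked, and chance gives about 1 in 20. Pdk4 was at 452.9 CPM in control ASO replicate 3, against 4.421 to 5.260 CPM in the others. Plin2 was at 1288 CPM in the same liver, against 241.8 to 269.9 CPM. For Acadm, DPBS replicate 1 held 402.2 CPM and the others 324.2 to 335.9 CPM. Acads was at 129.4 CPM in control ASO replicate 4, against 98.34 to 101.5 CPM.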

How the results depend on the processing

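Acot3 and Acot4 kept their calls in all 12 fits that left out a liver, but the model without sex lost them. For 26 log2 fold changes of members (those called, with Acot2 and Plin2), 152 of 227 values under other settings kept direction and side of the threshold and 71 lost the call. Named companions were recomputed only without control ASO replicate 3. Against control ASO, the 3 members called higher became 0 with the study's cutoffs, 1 with filterByExpr, 5 with DESeq2 and 0 with limma on either TPM scale, without sex or with only the 2 groups, and 0 to 6 with a liver left out. Over all genes, the 384 called higher became 65 with the cutoffs, 381 with filterByExpr, 664 with DESeq2 and 180 and 166 with limma. They became 210 without sex, 147 with only the 2 groups and 177 to 976 with a liver left out. The 4 members called lower became 8 with DESeq2 and 1 without sex, and 2 to 6 with a liver left out. Over all genes, the 526 called lower became 920 with DESeq2, 309 without sex and 257 to 1192 with a liver left out. Against DPBS, the 1 member called higher became 0 with the study's cutoffs, filterByExpr, no filter, limma, or without sex, 4 with DESeq2 and 5 with only the 2 groups, and 0 to 5 with a liver left out. Over all genes, the 316 called higher became 67 with the cutoffs, 337 with filterByExpr, 297 with no filter and 128 and 121 with limma. They became 192 without sex, 553 with DESeq2, 1182 with only the 2 groups and 148 to 1214 with a liver left out. The 5 members called lower became 3 with the cutoffs, filterByExpr, no filter and limma and 1 without sex, and 3 to 6 with a liver left out. Over all genes, the 474 called lower became 116 with the cutoffs, 484 with filterByExpr, 424 with no filter and 197 and 192 with limma. They became 285 without sex and 252 to 1326 with a liver left out. Control ASO against DPBS stayed at 0 in all fits that left out a liver. In males, the 4 members higher became 1 with the cutoffs and limma (2 to 8 with a liver left out), and the 7 lower became 3 with the cutoffs and 15 with limma (5 to 8). Over all genes, the 380 higher in males became 118 with the cutoffs and 141 with limma on log2(TPM + 1). The 507 lower became 122 and 2921. With a liver left out, the ranges over all genes were 247 to 918 higher and 334 to 1021 lower. Transcripts called higher went from 0 to 2 at a TPM of at least 5 (0 to 2 with a liver left out), and those called lower ranged from 1 to 4. The mitochondrial sum moved from -0.03 to 0.17 on summed TPM. Plin2 against control ASO turned from -0.27 to 0.09 on both TPM scales, and ranged from -0.53 to 0.62 with a liver left out. The causes were not tested.

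Within a sex, same-numbered livers of different groups correlated at -0.114 to 0.182, with 2 of 12 pairs over 0.1. With 2 livers per sex and group, the deviations of the 2 livers from their mean mirror each other, so each correlation occurs for 2 pairs. These values cannot decide whether replicate numbers share more than sex. The replicate block gave 2 members higher and 3 lower against control ASO, 0 and 3 against DPBS, and 1 transcript lower. Over all genes it gave 289 higher and 410 lower against control ASO, and 235 and 371 against DPBS.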
